A study of Caenorhabditis elegans with 18 samples.

Results

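The F-box A genes are one of the expanded families of F-box genes in *Caenorhabditis elegans*. The genes described here have a WormBase symbol made of *fbxa* and a number, and their normalized counts averaged 10 or more over the 18 mRNA-Seq libraries of the study. A normalized count is the number of reads on a gene divided by a size factor for its library. The rule took 93 of the 161 F-box A genes with a row in the table, and the whole table held 24998 genes, of which 13472 passed the same minimum and were tested.

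The libraries came from whole day 1 adult hermaphrodites of 6 genotypes, with 3 replicates each, grown for about 72 hours at 20 °C on *Escherichia coli* OP50. The genotypes were wild-type (N2), the single mutants *rict-1(mg360)*, *lin-29(n333)* and *fbxl-5(rhd43)*, and 2 strains that carry *rhd43* together with *mg360* or with *n333*, called the *rict-1* and the *lin-29* double mutant here. The *rhd43* allele holds a nonsense mutation of *fbxl-5*, an F-box gene outside the A family, *mg360* is an allele of *rict-1*, which encodes the Rictor subunit of the TORC2 kinase complex, and *n333* is an allele of *lin-29*, which encodes the zinc finger transcription factor of the larval to adult switch. Each genotype is 1 strain that carries its mutations in every tissue, and each library pools many animals. In whole animals fewer cells of a type and less RNA per cell cannot be told apart.

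F-box proteins are the substrate adaptors of SCF ubiquitin ligases. The F-box binds a Skp1-related protein (SKR in *C. elegans*), which docks on a cullin, and the cullin carries a RING protein that recruits the ubiquitin-conjugating enzyme, so that the substrate held by the F-box protein is marked with ubiquitin. Proteins of the A family carry an F-box followed by the FTH domain, which is shared with FOG-2, a regulator of germline sex determination. Most of the family has no assigned substrate. FBXA-75 and FBXA-158 are the best studied members, since they act with the cullin CUL-6, the Skp1-related proteins SKR-3, SKR-4 and SKR-5 and the RING protein RCS-1 in a ubiquitin ligase that is switched on in the intestine by intracellular pathogens and promotes tolerance of heat.

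A library held from 13434120 to 29733059 reads on genes, of which 7949 to 22123 fell on the 93 F-box A genes. Ribosomal RNA genes took between 0.0729% and 30.0% of the reads of a library, and the highest share was in *fbxl-5* replicate 3. The count of *fbxl-5* itself ranged from 86.5 to 110 normalized counts in wild-type and from 138 to 141 in the *fbxl-5* single mutant, so the nonsense allele did not lower the count. The count of *lin-29* was between 96.0 and 106 in wild-type and between 135 and 206 in the *lin-29* mutant, and that of *rict-1* was between 2767 and 3249 in wild-type and between 2120 and 3025 in the *rict-1* mutant, so none of the alleles could be checked by a loss of reads. *lin-29* replicate 3 and *lin-29* double mutant replicate 3 also stood apart from their groups. The pharyngeal myosin *myo-2* was at 563 in *lin-29* replicate 3 against 2724 and 3418 in the other replicates, and the adult collagen *col-19* was at 11397 in double mutant replicate 3 against 386 and 1749.

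The level of F-box A mRNA was uneven across the family. The mean normalized count of a member over the 18 libraries ran from 10.4 to 4384, with a median of 45.1, and 49 of the 93 members lay between 10 and 50. Per kilobase of exon, which allows levels of different genes to be compared, the members ran from 6.23 for *fbxa-169* to 3259 for *fbxa-215*, with a median of 42.5. *fbxa-215* on chromosome IV alone made up between 25.6% and 39.2% of the summed normalized counts of the family in a library. It was followed per kilobase of exon by *fbxa-101* on chromosome I at 703, *fbxa-210* and *fbxa-206* on chromosome V at 655 and 507, *fbxa-60* on chromosome III at 428, *fbxa-114* on chromosome V at 306, *fbxa-170* on chromosome X at 234 and *fbxa-95* on chromosome V at 229. The predicted proteins of the 93 genes had a median of 317 codons, and 55 had between 290 and 330.

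Most members sat on chromosome III (34 genes) or V (33 genes), with 11 on II, 6 on I, 6 on X and 3 on IV in the WBcel235 annotation. Many lay side by side. When neighbouring F-box A genes with starts under 20 kb apart were joined, 38 of the 93 members fell into 6 arrays with at least 3 members. Exons of 16 members overlapped an exon of another annotated gene, and for 4 of them (*fbxa-3*, *fbxa-209*, *fbxa-67* and *fbxa-169*) the overlap covered over 10% of the exon length. The library kit does not mark strand, so reads there cannot be told apart from those of the neighbour, and reads shared by near-identical F-box A genes may also have been split or lost in counting.

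Of the 93 members, 64 (68.8%) differed among the 6 genotypes in limma's moderated F-test at an FDR of 0.01, against a background of 58.0% of all genes tested. In the 7 comparisons of genotype pairs, 56 members were called at least once and 37 never. *fbxa-14* was called in 5 comparisons, which was the highest number for any member, and 11 members were called in 4. The matching counts over all genes were not made, so these numbers cannot be set against a background. The comparisons with wild-type share the 3 wild-type libraries, so their values are set side by side below without a test between them.

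**Figure D1:**
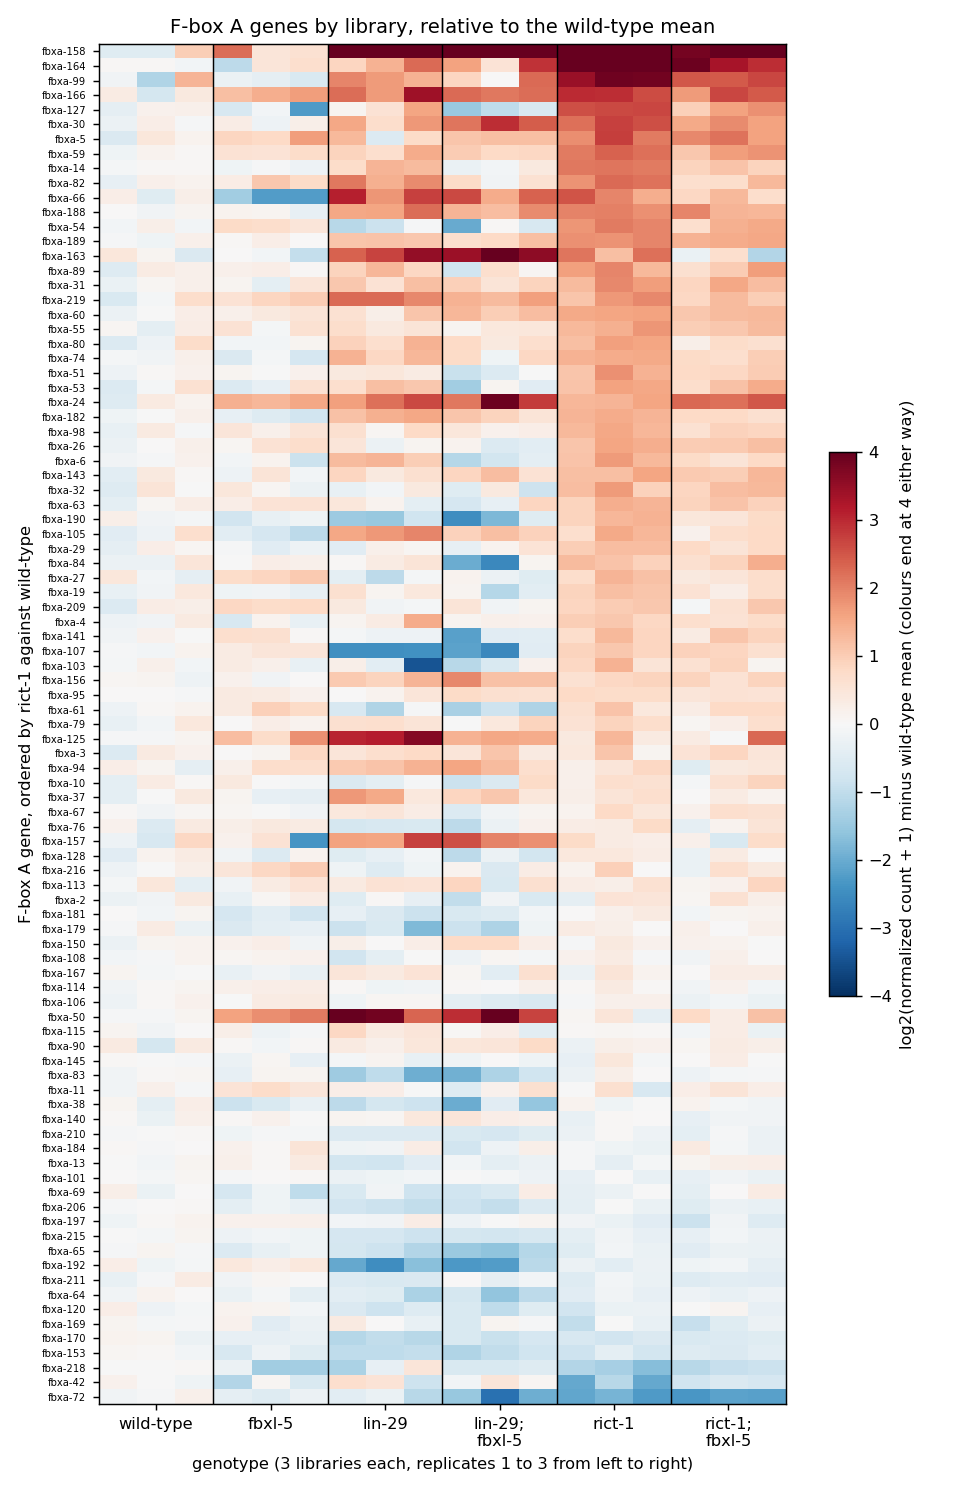
Level of each of the 93 F-box A genes (rows) in each of the 18 libraries (columns, 3 per genotype), as log2(normalized count + 1) minus the wild-type mean, with red for higher and blue for lower. Rows are ordered by the change in *rict-1*, from *fbxa-158* (5.55) at the top to *fbxa-72* (−2.07) at the bottom, and red cells prevail in the *rict-1* columns.

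A large share of the family was higher in *rict-1*. In limma, 35 of the 93 members were called between *rict-1* and wild-type, against a background of 16.4% of all genes tested. Of these, 31 rose, against a background of 10.7% of genes called higher, and 4 fell, against 5.78% called lower. The rises include *fbxa-164*, which passed the minimum only through *rict-1*, and *fbxa-89*, which passed only through *rict-1* or its double mutant. The count of rises was therefore in part set by the filter. The median log2 fold change of the members was 0.72, against −0.03 for all genes tested. The mean was higher in *rict-1* for 71 members and for 6327 of 13472 genes tested. Summed over all 93 members, the normalized counts ran from 14515 to 17215 in *rict-1* and from 13849 to 15205 in wild-type. These groups overlapped. Without *fbxa-215*, the sums ran from 10311 to 12273 in *rict-1* and from 8422 to 9337 in wild-type, with no overlap. Fold changes here and below are on the scale of log2(normalized count + 1), which understates the change of genes with few reads.

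*fbxa-158*, which encodes an adaptor of the CUL-6 ligase, rose most. It was at 78.7, 65.4 and 54.3 normalized counts in the *rict-1* libraries and at 0, 0 and 1.82 in wild-type. Every *rict-1* library lay far above every wild-type library, which together held 2 reads of the gene against 237 reads in *rict-1*. The ratio of the means was 92.7, with a 95% counting interval from 25.4 to 770 that covers counting error only (log2 fold change 5.55 ± 0.46 (SE), adjusted p = 2.6e-07). The other adaptor of that ligase, *fbxa-75*, was below the minimum, with 0 reads in wild-type and 1 read in *rict-1*.

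*fbxa-164*, a neighbour of *fbxa-158*, was at 44.6, 60.7 and 52.5 normalized counts in *rict-1* and at 1.17, 1.17 and 0.909 in wild-type. The groups did not overlap, and the wild-type libraries held 3 reads in all, which gave a ratio of 49.6 with a counting interval from 16.7 to 242. *fbxa-164* passed the minimum of 10 only through the *rict-1* libraries, so its difference was in part set by the filter.

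Other large rises were found on several chromosomes. *fbxa-99* was at 53.3, 73.1 and 71.5 normalized counts in *rict-1* and at 3.51, 1.17 and 11.8 in wild-type (log2 fold change 3.73 ± 0.55 (SE), adjusted p = 9.8e-05). Exons of the opposite-strand gene *oac-20* overlap 9.45% of its exon length. *fbxa-127* was at 60.3, 63.8 and 65.4 in *rict-1* and at 7.02, 10.5 and 10.9 in wild-type (2.64 ± 0.49, adjusted p = 0.00076). Both genes lie on chromosome V, outside the arrays, and none of their *rict-1* libraries came near the wild-type range.

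Among the more abundant members, *fbxa-60* was at 784, 825 and 843 normalized counts in *rict-1* and at 229, 268 and 330 in wild-type (log2 fold change 1.58 ± 0.18 (SE), adjusted p = 5.9e-06). *fbxa-59*, its neighbour, was at 261, 314 and 284 against 53.8, 66.8 and 62.7 (2.21 ± 0.21, adjusted p = 8.9e-07). *fbxa-14* was at 184, 191 and 181 against 39.8, 43.3 and 43.6, a 4.39-fold ratio of the means (2.11 ± 0.20, adjusted p = 1.0e-06). For all 3 genes the spread within a genotype was small beside the difference, and the groups did not overlap. The remaining rises among the 8 largest were *fbxa-166* (2.84 ± 0.42), *fbxa-30* (2.51 ± 0.33) and *fbxa-5* (2.24 ± 0.44).

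The 4 falls were *fbxa-72*, *fbxa-42*, *fbxa-153* and *fbxa-170*. *fbxa-72* on chromosome V was at 413, 443 and 522 normalized counts in wild-type and at 108, 125 and 94.7 in *rict-1*, with no overlap between the groups (log2 fold change −2.07 ± 0.28 (SE), adjusted p = 4.2e-05). *fbxa-42* was at 28.1, 24.6 and 21.8 in wild-type and at 5.25, 10.9 and 5.17 in *rict-1* (−1.74 ± 0.41, adjusted p = 0.0042). *fbxa-153* and *fbxa-170* fell by 0.66 and 0.65 on the log2 scale. The 2 members with the highest level per kilobase of exon, *fbxa-215* and *fbxa-101*, were not called.

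Of the 35 calls in *rict-1*, 25 were kept in every alternative analysis and with any 1 library left out. The number called ranged from 28 to 32 when single libraries were left out. In those fits 10.4% to 13.7% of all genes were called, against 16.4% in the main fit. The 10 members whose call was lost without 1 of the libraries were *fbxa-6*, *fbxa-24*, *fbxa-29*, *fbxa-42*, *fbxa-66*, *fbxa-80*, *fbxa-89*, *fbxa-105*, *fbxa-143* and *fbxa-153*. Markers of the intestine moved with this comparison. The summed count of *vit-2*, *vit-6*, *elt-2*, *ges-1* and *ifb-2* was between 1359350 and 1524840 in wild-type and between 1824330 and 2027730 in *rict-1*, none of them was at 0, and *elt-2*, *ges-1* and *ifb-2* rose by 0.86, 1.35 and 1.43 on the log2 scale. This sum is mostly *vit-2* and *vit-6*. The summed count of the pharyngeal myosins *myo-1* and *myo-2* was between 1674 and 2421 in wild-type and between 233 and 460 in *rict-1*. The part of tissue proportions in the F-box A result was not tested.

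**Figure D2:**
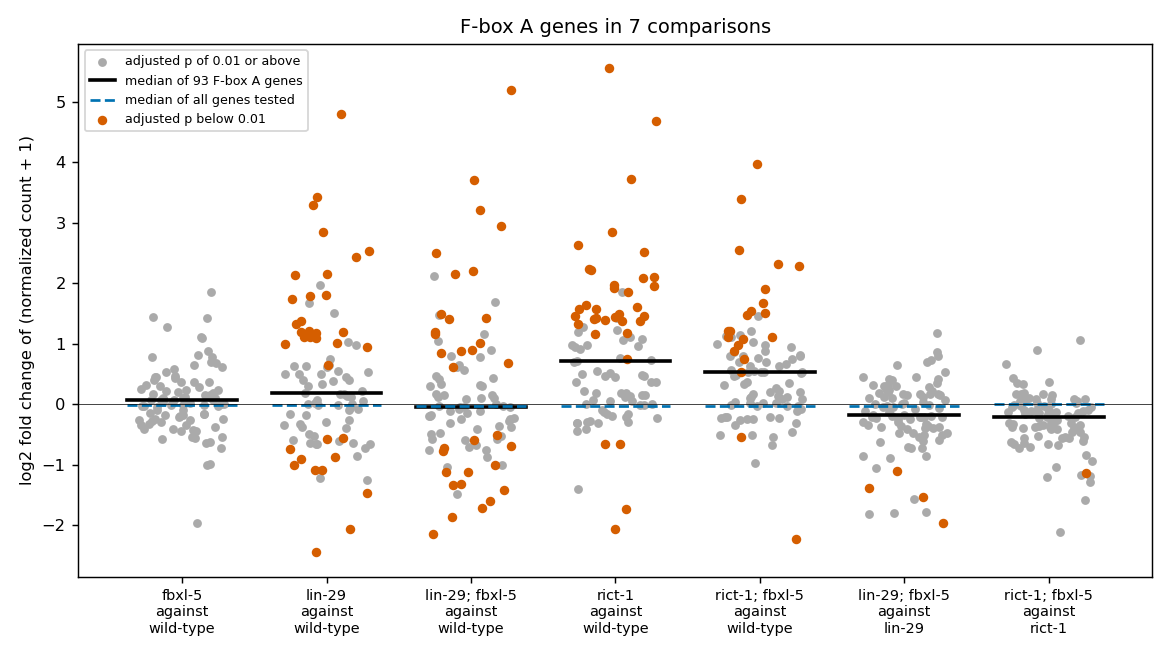
Log2 fold change of each of the 93 F-box A genes (points) in the 7 comparisons, with members past an adjusted p of 0.01 in orange, the median of the members as a black bar and the median of all genes tested as a dashed blue bar. The members' median stands at 0.72 in *rict-1* and 0.53 in its double mutant against wild-type, and at 0.06 in *fbxl-5*.

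In the *rict-1* double mutant the rise of the family against wild-type was still seen. Of the 93 members, 21 were called against wild-type (background 10.9% of all genes tested), with 19 higher and 2 lower (7.36% and 3.56% of all genes), and the median log2 fold change was 0.53. *fbxa-158* was at 18.99, 22.6 and 21.9 normalized counts, all above wild-type and all below the *rict-1* single mutant, and its ratio to the wild-type mean was 29.8 (counting interval 7.96 to 250). *fbxa-72* was at 90.0, 102 and 99.6, below every wild-type library and overlapping the single mutant. *fbxa-164* (log2 fold change 3.39 ± 0.58 (SE)), *fbxa-99* (2.55 ± 0.55), *fbxa-24* (2.32 ± 0.35), *fbxa-166* (2.28 ± 0.42), *fbxa-5* (1.90 ± 0.44), *fbxa-30* (1.67 ± 0.33) and *fbxa-188* (1.54 ± 0.27) completed the 8 largest rises, and *fbxa-170* fell by 0.54. The summed intestinal markers, mostly *vit-2* and *vit-6*, ran from 1746750 to 2066840 normalized counts in these libraries and from 1359350 to 1524840 in wild-type. The ratio of the means was 1.35 for *vit-2*, 1.31 for *vit-6*, 1.93 for *elt-2*, 1.32 for *ges-1* and 2.54 for *ifb-2*. The part of these markers was not tested. The count of calls rested on the libraries used: it was 10 without wild-type replicate 1, 11 without double mutant replicate 2 and 12 without double mutant replicate 3, where 6.35%, 7.19% and 5.87% of all genes were called.

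Compared directly with *rict-1*, the double mutant gave 1 called member (background 1.39% of all genes tested, and 1.06% called lower). An unadjusted p below 0.05 was found for 22 members and for 1694 of 13472 genes tested. The called member was *fbxa-14*, at 78.4, 95.2 and 79.3 normalized counts in the double mutant against 184, 191 and 181 in *rict-1*, so that all double mutant libraries lay below the single mutant and above wild-type (log2 fold change −1.13 ± 0.20 (SE), adjusted p = 0.0031). This call was lost when any library other than double mutant replicate 2 was left out, with an adjusted p of up to 0.021. Only 23 of the 93 members had a higher mean in the double mutant than in *rict-1*, against 6963 of 13472 genes tested. The median log2 fold change of the members was −0.21 against 0.01 for all genes tested.

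Libraries of *rict-1* and its double mutant with the same replicate number deviated together, so the comparison was also made as a paired one. The pairing was taken from the same values, so the paired fit is given as a description. With the replicate number as a block and only these 6 libraries in the fit, 15 members were called, of which 14 fell in the double mutant and 1, *fbxa-24*, rose. In that fit 10.1% of all genes tested were called, against 1.39% in the fit of all 18 libraries. The larger count of members thus goes with more calls over all genes. Of the 13472 genes tested, 847 were called lower and 508 higher in the paired fit. Those that fell included *fbxa-14* (adjusted p = 1.6e-05), *fbxa-158* (log2 fold change −1.59 ± 0.21 (SE), adjusted p = 9.0e-05), *fbxa-164* (−1.29 ± 0.25, adjusted p = 0.0020) and *fbxa-82* (−1.20 ± 0.24, adjusted p = 0.0022). *fbxa-164* passed the minimum only through *rict-1*, so its fall was in part set by the filter. In the fit of all 18 libraries the block left the count at 1 (1.77% of all genes), and in the fit of the 6 libraries without the block it was 6 (3.17% of all genes). The intestinal esterase gene *ges-1* fell in the same comparison, by 0.95 on the log2 scale in the fit of 18 libraries, whereas the other 4 intestinal markers, *elt-2*, *ifb-2*, *vit-2* and *vit-6*, were not called and overlapped between the groups. The relation of *ges-1* to the F-box A values was not tested.

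**Figure D3:**
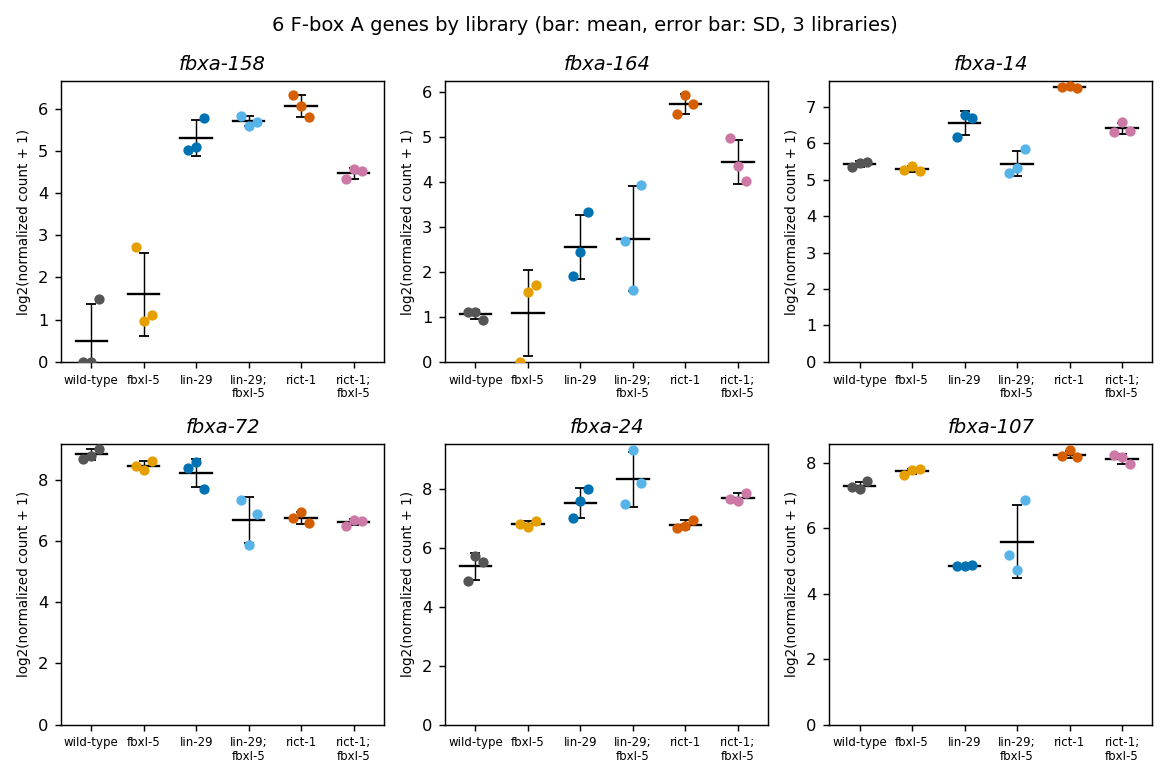
Level of 6 F-box A genes as log2(normalized count + 1) in each library (points), with the mean (bar) and SD (error bar) of the 3 libraries of each genotype. *fbxa-158* and *fbxa-164* are near 0 in wild-type and high in *rict-1*, *fbxa-14* in each double mutant lies below the *rict-1* or *lin-29* single mutant it derives from, *fbxa-72* is low in *rict-1* and in both double mutants, *fbxa-24* is lowest in wild-type, and *fbxa-107* is low in *lin-29* and in its double mutant.

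The *lin-29* mutation moved the family in both directions. In limma, 35 of the 93 members were called against wild-type, which was no larger a share than the background of 41.0% of all genes tested, with 24 higher and 11 lower (22.6% and 18.4% of all genes). The rises include *fbxa-125*, which passed the minimum only through *lin-29*, so the count of rises was in part set by the filter. The median log2 fold change was 0.19 against −0.01 for all genes tested, and 56 members had a higher mean, as did 6647 of 13472 genes tested. The 11 that fell held 4 of the 8 members with the highest level per kilobase of exon, namely *fbxa-215*, *fbxa-210*, *fbxa-206* and *fbxa-170*.

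*fbxa-215* was at 5427, 5191 and 5868 normalized counts in wild-type and at 3422, 3413 and 3063 in *lin-29* (log2 fold change −0.74 ± 0.08 (SE), adjusted p = 2.3e-06). The groups were far apart, and the summed count of the family was lower in *lin-29* (11545 to 11960) than in wild-type (13849 to 15205). Without *fbxa-215* the sums overlapped, from 8133 to 8897 in *lin-29* and from 8422 to 9337 in wild-type. The largest fall was that of *fbxa-107*, at 153, 146 and 173 in wild-type and at 27.6, 27.7 and 28.6 in *lin-29* (−2.45 ± 0.34, adjusted p = 1.8e-05). *fbxa-192* followed, from 261, 191 and 203 to 51.6, 37.5 and 67.7 (−2.07 ± 0.27, adjusted p = 7.4e-06). The other falls of at least 0.88 on the log2 scale were those of *fbxa-83*, *fbxa-170*, *fbxa-179*, *fbxa-153*, *fbxa-65* and *fbxa-206*.

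*fbxa-158* also showed the largest rise in *lin-29*, at 31.3, 33.1 and 54.2 normalized counts. All 3 libraries lay above wild-type, with 107 reads against 2 and a ratio of the means of 52.4 (counting interval 14.2 to 438). *fbxa-50* on chromosome III was at 57.1, 49.1 and 16.6 in *lin-29* and at 2.34, 2.34 and 2.73 in wild-type (log2 fold change 3.42 ± 0.46 (SE), adjusted p = 1.2e-05). Replicate 3 of *lin-29*, one of the libraries that stood apart, was the lowest of the group and still above wild-type. In *rict-1* the same gene was at 2.62, 3.89 and 1.72, overlapping wild-type, and was not called.

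*fbxa-125* was at 27.6, 29.5 and 43.6 normalized counts in *lin-29* and at 2.34, 2.34 and 2.73 in wild-type (log2 fold change 3.29 ± 0.52 (SE), adjusted p = 5.6e-05). It passed the minimum of 10 only through the *lin-29* libraries, so its difference was in part set by the filter. *fbxa-163* was at 20.3, 25.9 and 46.6 against 4.68, 3.51 and 1.82 (2.85 ± 0.50, adjusted p = 0.00015). Neither pair of groups overlapped. *fbxa-66* (2.53 ± 0.45), *fbxa-166* (2.44 ± 0.42), *fbxa-24* (2.16 ± 0.35) and *fbxa-219* (2.14 ± 0.30) completed the 8 largest rises.

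Stage and tissue markers differed strongly in these libraries. The summed count of the larval collagens *col-10*, *col-12* and *col-17* was between 44.5 and 129 in wild-type and between 12899 and 21965 in *lin-29*. That of 7 early embryo markers was between 284 and 396 in wild-type and between 37.6 and 111 in *lin-29*, with *med-2* at 0 in both, and that of the intestinal markers was between 436820 and 590058 in *lin-29*. The latter sum is mostly *vit-2* and *vit-6*, which fell by 1.17 and 1.65 on the log2 scale, whereas *ges-1* and *ifb-2* rose by 0.90 and 1.41 and *elt-2*, not called, had a log2 fold change of 0.50. The part of these differences in the F-box A result was not tested. Of the 35 calls, 25 were kept in every alternative and with any 1 library left out. The 9 members whose call was lost without 1 of the libraries were *fbxa-6*, *fbxa-30*, *fbxa-31*, *fbxa-37*, *fbxa-60*, *fbxa-80*, *fbxa-94*, *fbxa-179* and *fbxa-211*. Without the 3 libraries that stood apart, an alternative chosen after seeing the data, 32 members were called, 20 higher and 12 lower, with 42.4% of all genes called.

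In the *lin-29* double mutant, 33 of the 93 members were called against wild-type (background 39.0% of all genes tested), with 18 higher and 15 lower (19.5% of all genes in either direction) and a median log2 fold change of −0.04. *fbxa-158* was at 55.4, 47.1 and 50.3 normalized counts, all far above wild-type, with a ratio of 71.1 (counting interval 19.3 to 593). *fbxa-163* was at 43.2, 72.8 and 48.9 (log2 fold change 3.71 ± 0.50 (SE), adjusted p = 1.4e-05). *fbxa-24* was at 176, 628 and 288 against 28.1, 51.5 and 44.5 in wild-type (2.95 ± 0.35, adjusted p = 4.3e-06), and replicate 2 stood above all others of the study. *fbxa-50* (3.21 ± 0.46), *fbxa-30* (2.50 ± 0.33), *fbxa-166* (2.20 ± 0.42), *fbxa-66* (2.16 ± 0.45) and *fbxa-188* (1.49 ± 0.27) completed the 8 largest rises.

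The largest fall of the double mutant against wild-type was that of *fbxa-72*, at 161, 57.4 and 118 normalized counts against 413, 443 and 522 (log2 fold change −2.14 ± 0.28 (SE), adjusted p = 1.1e-05). All 3 libraries lay below the lowest *lin-29* library as well. *fbxa-192* (−1.87 ± 0.27), *fbxa-107* (−1.71 ± 0.34), *fbxa-190* (−1.60 ± 0.38), *fbxa-65* (−1.41 ± 0.17), *fbxa-38* (−1.33 ± 0.33), *fbxa-83* (−1.31 ± 0.26) and *fbxa-61* (−1.12 ± 0.30) followed. For *fbxa-107* replicate 3, which stood apart from its group, was at 115 against 35.1 and 25.6 in the others. The summed larval collagens were between 9696 and 14759 normalized counts in these libraries and between 44.5 and 129 in wild-type, and their part was not tested.

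Compared directly with *lin-29*, the double mutant gave 4 called members, all lower (background 5.82% of all genes tested, and 4.50% called lower). *fbxa-6* was at 8.11, 11.3 and 14.4 normalized counts against 47.9, 50.9 and 39.1 in *lin-29* (log2 fold change −1.96 ± 0.29 (SE), adjusted p = 0.00018), and its double mutant libraries lay below wild-type too. *fbxa-72* (−1.54 ± 0.28), *fbxa-82* (−1.38 ± 0.33) and *fbxa-14* (−1.10 ± 0.20) were the others. *fbxa-14* was at 35.1, 38.9 and 56.1 in the double mutant against 71.0, 109 and 102 in *lin-29*, so the groups did not overlap, and its double mutant libraries overlapped the wild-type range. None of the 4 calls was kept when only the 6 libraries of the comparison were fitted (0.468% of all genes called), 1 member was called without *lin-29* replicate 2 (3.93% of all genes), and 9 were called without the 3 libraries that stood apart (12.5% of all genes). The intestinal markers *ges-1* and *ifb-2* fell in the same comparison by 1.47 and 0.81 on the log2 scale, *vit-2* and *vit-6* rose by 0.90 and 1.02, and *elt-2* was not called (−0.15). Their relation to these values was not tested.

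No member passed the test in *fbxl-5* alone. In limma, 0 of the 93 were called against wild-type (background 2.56% of all genes tested). An unadjusted p below 0.05 was found for 23 of the 93 members and for 3243 of 13472 genes tested. The quasi-likelihood test of edgeR called 0 members and DESeq2 called 1. The members closest to the threshold had few reads. *fbxa-66* was at 0.803, 0 and 0 normalized counts in *fbxl-5* and at 4.68, 2.34 and 4.54 in wild-type, which are 1 and 11 reads, a ratio of 0.0809 with a counting interval from 0.00188 to 0.556 (adjusted p = 0.015). *fbxa-24*, with more reads, was at 109, 102 and 118.9 against 28.1, 51.5 and 44.5, all above wild-type (log2 fold change 1.43 ± 0.35 (SE), adjusted p = 0.019). *fbxa-50* was at 9.64, 11.6 and 13.7 against 2.34, 2.34 and 2.73, also with no overlap (1.85 ± 0.46, adjusted p = 0.021). *fbxa-166* had a log2 fold change of 1.44 ± 0.42 and an adjusted p of 0.044.

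The effect of *fbxl-5* loss in a mutant background was set against its effect in wild-type by an interaction term. In limma, 0 of the 93 members were called for the *lin-29* background (background rate 2.40% of all genes tested) and 0 for the *rict-1* background (0.854%). An unadjusted p below 0.05 was found for 22 and 24 members, and for 2892 and 2347 of 13472 genes tested. The quasi-likelihood test of edgeR called 0 in both, and DESeq2 called 2 and 1. The members closest to the threshold were *fbxa-82* for *lin-29* (adjusted p = 0.012) and *fbxa-59* for *rict-1* (adjusted p = 0.019). *fbxa-14* was at 37.8, 40.5 and 36.6 normalized counts in the *fbxl-5* single mutant, and its interaction was −0.96 ± 0.28 (SE) for *lin-29* (adjusted p = 0.049) and −0.99 ± 0.28 for *rict-1* (adjusted p = 0.061), so its fall in the double mutants was not shown to differ from the effect in wild-type.

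Some arrays of F-box A genes held rises and others held none. The 6 arrays contain 38 of the 93 members. As a background for the counts below, 10.7% of all genes tested were called higher in *rict-1* and 22.6% in *lin-29*. The array with *fbxa-158* spans 12.03 kb of chromosome II (1609252 to 1621280) and holds *fbxa-163*, *fbxa-164*, *fbxa-165*, *fbxa-166* and *fbxa-158* on the reverse strand, of which all but *fbxa-165* were members. In *rict-1*, 3 of its 4 members rose, with a median log2 fold change of 3.76, and *fbxa-163* was at 1.85 ± 0.50 with an adjusted p of 0.011. The 3 include *fbxa-164*, which passed the minimum only through *rict-1*, so this count and the median were in part set by the filter. In *lin-29*, 3 rose, with a median of 2.65, and *fbxa-164* was at 1.51 ± 0.58 with an adjusted p of 0.035. All 4 had a lower mean in the *rict-1* double mutant than in *rict-1*, with a median of −1.44. *fbxa-163* was at 2.48, 5.65 and 0.844 normalized counts there, against 17.5, 8.56 and 18.1 in *rict-1*, and its double mutant libraries overlapped the wild-type range of 1.82 to 4.68.

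The largest array lies on chromosome III and has 24 F-box A genes on both strands, of which 16 were members that span 105.7 kb (1239048 to 1344744). All 16 had a higher mean in *rict-1* than in wild-type and 7 rose, namely *fbxa-31*, *fbxa-29*, *fbxa-30*, *fbxa-80*, *fbxa-14*, *fbxa-5* and *fbxa-26*, with a median log2 fold change of 1.19 over the array. In *lin-29*, 6 rose and the median was 0.45. Of these, *fbxa-31*, *fbxa-30*, *fbxa-37* and *fbxa-80* were among those that lost their call without 1 of the libraries. Neighbours did not move alike throughout: *fbxa-50*, which had risen most in *lin-29*, had a log2 fold change of 0.07 in *rict-1*, and its neighbours among the members are *fbxa-37*, which rose in *lin-29* (1.22) and was not called in *rict-1*, and *fbxa-79*, which was called in neither. A second array on chromosome III (933422 to 963833) has 8 members, of which *fbxa-55*, *fbxa-59*, *fbxa-60*, *fbxa-54* and *fbxa-51* rose in *rict-1*, with a median of 1.47, whereas *fbxa-67*, *fbxa-11* and *fbxa-10* between them were not called.

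The other 3 arrays differed from these. On chromosome III (2224672 to 2314035), *fbxa-219* and *fbxa-66* rose in *rict-1* and *fbxa-42* fell, whereas *fbxa-38* was not called. On chromosome V (18123939 to 18128888), *fbxa-107*, *fbxa-210* and *fbxa-211* lie head to tail, and all 3 fell in *lin-29* and none was called in *rict-1*. The other array of chromosome V (20190535 to 20204547), with *fbxa-115*, *fbxa-114* and *fbxa-113*, had 0 calls in either mutant. Taken by chromosome, 17 of the 34 members on III rose in *rict-1* and 1 fell, 5 of 11 on II rose, 8 of 33 on V rose and 2 fell, and 0 of 6 on I were called. These counts are a description, since neighbours may share reads.

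**Figure D4:**
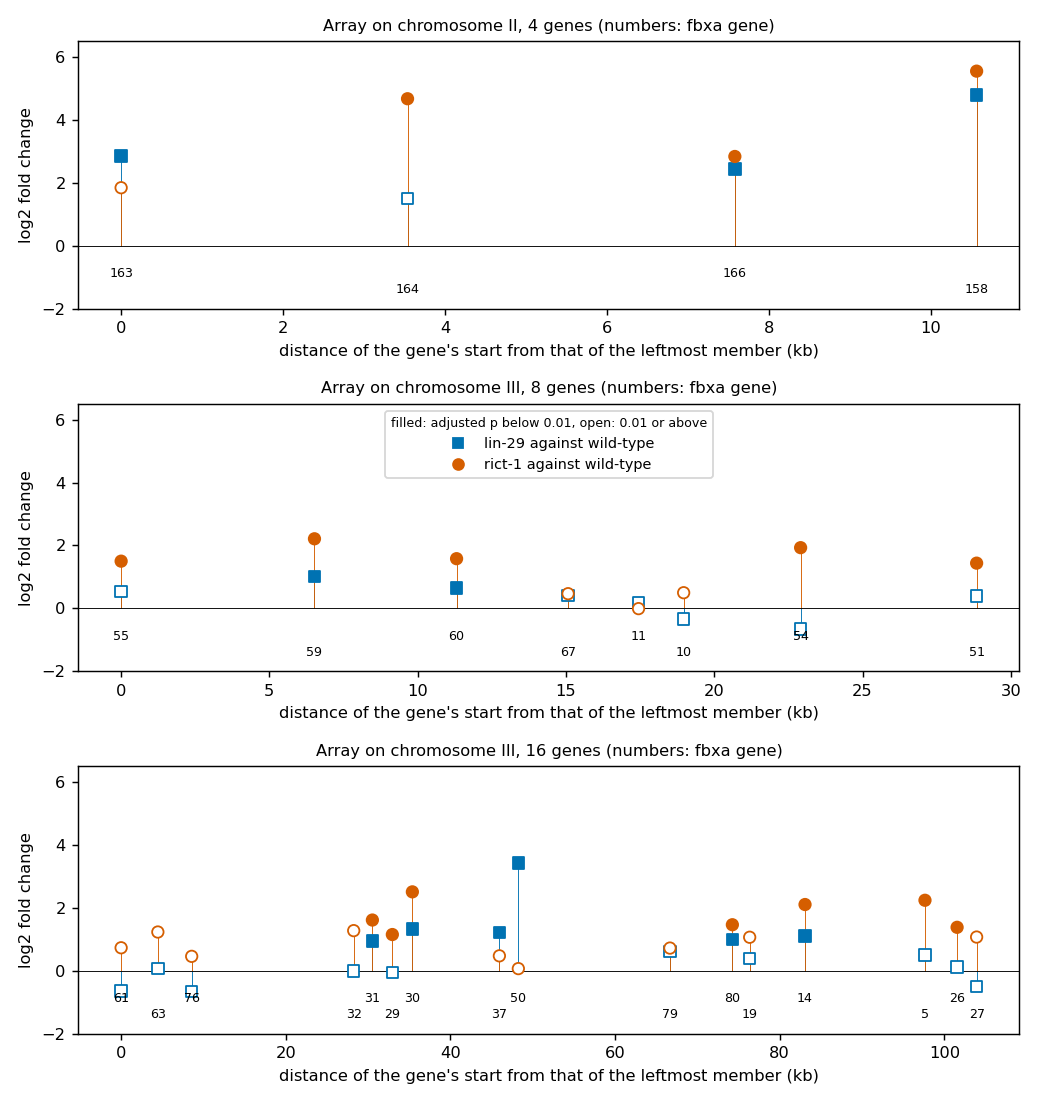
Log2 fold change in *rict-1* (orange circles) and *lin-29* (blue squares) against wild-type of the F-box A genes in 3 arrays, plotted by the distance of each gene's start from that of the leftmost member in kb. Filled symbols have an adjusted p below 0.01, and all 16 members of the longest array lie above 0 in *rict-1*, 7 of them filled.

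The 2 other expanded F-box families gave other counts of calls. Of 81 F-box B genes that passed the minimum, 0 rose and 2 fell in *rict-1*, with a median log2 fold change of 0.41, and 14 fell in *lin-29* and 51 in its double mutant, with medians of −1.32 and −2.08. Of 29 F-box C genes, 3 rose in *rict-1*, whereas 3 rose and 6 fell in *lin-29*. Calls aside, the mean was higher in *rict-1* for 77 of the 81 B genes and 23 of the 29 C genes. It was higher for 71 of the 93 F-box A members and for 6327 of 13472 genes tested. In percent of the genes tested, 2.47% of the B genes and 10.3% of the C genes were called in *rict-1* against 16.4% of all genes, and 17.3% and 31.0% in *lin-29* against 41.0%. In the *lin-29* double mutant against wild-type, 63.0% of the B genes were called against 39.0% of all genes. No test between the families was made.

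The partners of the F-box proteins were measured in the same libraries. Of 27 genes for Skp1-related proteins, cullins and the RING proteins RBX-1 and RBX-2, 3 rose and 2 fell in *rict-1*, and 4 rose and 13 fell in *lin-29*. These are 18.5% of the list in *rict-1*, near the 16.4% of all genes, and 63.0% in *lin-29* against 41.0% of all genes. The 3 that rose in *rict-1* were *skr-3*, *skr-4* and *skr-5*, all parts of the CUL-6 ligase that uses FBXA-158. *skr-5* was at 44.6, 40.5 and 56.8 normalized counts in *rict-1* and at 3.51, 3.51 and 0.909 in wild-type, with no overlap (log2 fold change 3.82 ± 0.43 (SE), adjusted p = 6.1e-06). *skr-4* was at 778, 865 and 797 against 221, 279 and 343 (1.55 ± 0.14, adjusted p = 6.8e-07), and *skr-3* changed by 0.92 ± 0.15 (adjusted p = 0.00020). These values place the Skp1-related genes on the same side of wild-type as *fbxa-158* in every *rict-1* library.

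*rcs-1*, the RING partner, also rose in *rict-1* (log2 fold change 0.86 ± 0.17 (SE), adjusted p = 0.0014). The cullin gene *cul-6* itself did not follow: it was at 118, 109 and 115 normalized counts in wild-type and at 90.9, 126 and 75.8 in *rict-1*, with overlapping groups (−0.25 ± 0.21, adjusted p = 0.37). In *lin-29* the same 4 genes rose, by 2.60 for *skr-5*, 0.84 for *skr-4*, 0.80 for *skr-3* and 0.61 for *rcs-1* on the log2 scale, and *cul-6* was at 166, 136 and 117 (0.28 ± 0.21, adjusted p = 0.27). *skr-4* fell in both double mutants against the single mutants, by 0.88 in the *rict-1* pair (adjusted p = 0.0016) and by 0.70 in the *lin-29* pair (adjusted p = 0.0030).

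The 2 partner genes that fell in *rict-1* were the cullins *cul-5* and *cul-4*. *cul-5* was at 1089, 1026 and 1392 normalized counts in *rict-1* and at 2405, 2204 and 2086 in wild-type (log2 fold change −0.94 ± 0.10 (SE), adjusted p = 5.4e-06), and in the double mutant at 1747, 1624 and 1766, between the other groups. *cul-1*, the cullin of the canonical SCF complex, was at 4475, 4203 and 3839 in wild-type and at 4092, 3329 and 3700 in *rict-1*, and was not called (−0.17 ± 0.10, adjusted p = 0.21).

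**Figure D5:**
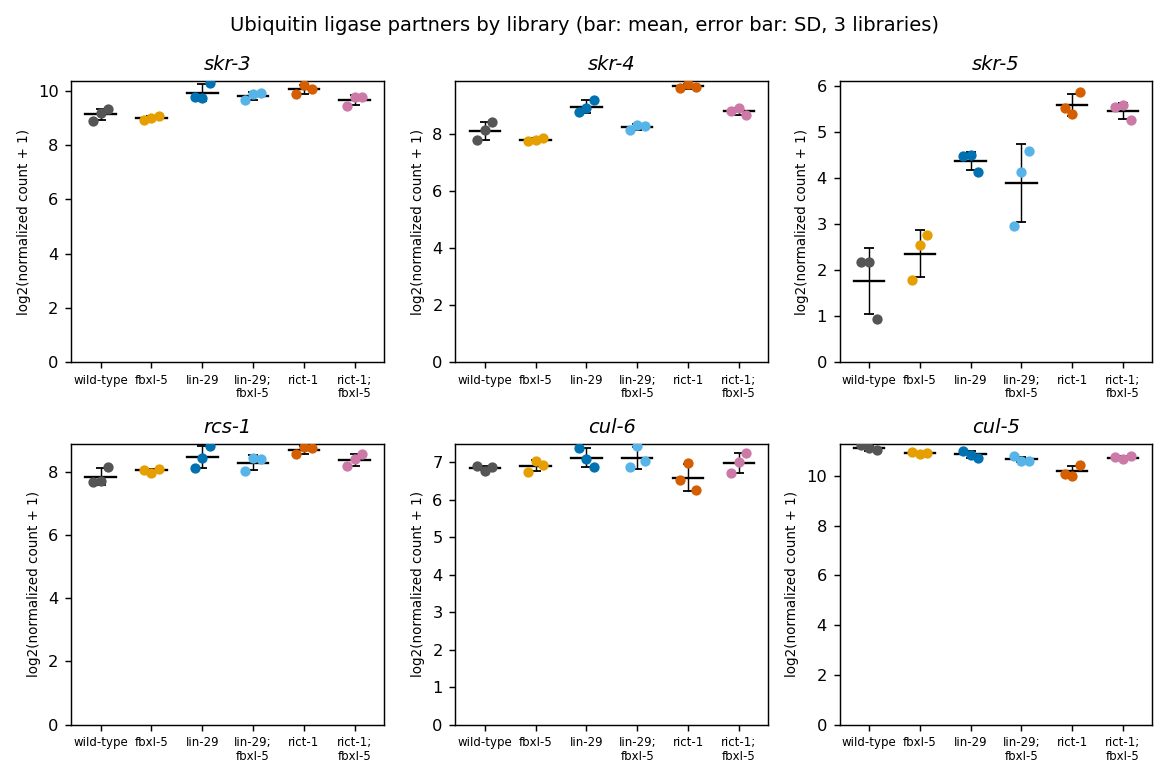
Level of 6 ubiquitin ligase genes as log2(normalized count + 1) in each library (points), with the mean (bar) and SD (error bar) of the 3 libraries of each genotype. *skr-3*, *skr-4*, *skr-5* and *rcs-1* are higher in *rict-1* and *lin-29* than in wild-type, *cul-6* stays between 75.8 and 172 normalized counts in all libraries, and *cul-5* is lowest in *rict-1*.

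The minimum of 10 divided genes of similar level. The 3 members just inside it were *fbxa-125*, *fbxa-89* and *fbxa-157*, with means of 10.8, 10.5 and 10.4, and the 3 F-box A genes just outside it were *fbxa-48*, *fbxa-199* and *fbxa-85*, with means of 9.86, 9.46 and 9.40. The minimum was met by 5 members only through some genotypes, namely *fbxa-164* and *fbxa-103* through *rict-1*, *fbxa-125* through *lin-29*, *fbxa-89* through *rict-1* or its double mutant, and *fbxa-157* through *lin-29* or its double mutant.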

How the data were processed

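The authors prepared TruSeq mRNA libraries, aligned single-end reads to the WS260 genome and deposited a signal per gene and library, the read count divided by a size factor. The submitters' processing notes name STAR, featureCounts of Subread and DESeq2 without versions. Of the values, 100% were whole multiples of 1 read (tolerance 1e-06), so reads were recovered for edgeR 4.0.16, DESeq2 1.42.0 and counting intervals (exact, 95%, counting error only, with a floor of 3 reads where a group held 0). The 7 deposited tables of the authors' own comparisons hold fold changes and p-values and were not used. Genotypes came from the sample labels.

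For the 13472 genes with a mean of at least 10, log2(normalized count + 1) was fitted with limma 3.58.1 in R 4.3.3 (trend, robust prior, 1 mean per genotype, all 18 libraries, no covariate), with Benjamini-Hochberg adjustment over all genes tested and an FDR of 0.01. The computation was tested on simulated data. Alternatives were pseudocounts of 0.5 and 5, no minimum, TMM scaling, edgeR, DESeq2, a replicate block, only the libraries compared, an FDR of 0.05, and leaving out each library. The members, gene lists and tests were chosen with earlier results of these data known.

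Members are named if they were among the 8 largest rises or falls called in a comparison, among the 8 highest per kilobase of exon, next to the minimum, called most often, or in an array of at least 3 members. *fbxa-75* and *fbxa-158* are always named. Members nearest to the threshold, those called in the paired fit and those whose call was lost were named after their values were seen.

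Same-numbered libraries of *rict-1* and its double mutant deviated together (correlation across genes 0.646, 0.394 and 0.237), so these numbers were taken to pair them. This rests on the values alone, and correlations between libraries with different numbers were not computed. In other comparisons single values reached 0.328 (*lin-29* pair, replicate 2) and 0.267 (*rict-1* against wild-type, replicate 2). The other replicates of those comparisons lay between −0.215 and 0.068. Symbols came from a WormBase identifier table (92.7% of identifiers) and positions from the WBcel235 annotation. No sequence was available here, so the planned comparison of proteins and promoters was not run.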

Additional observations from a re-analysis of the deposited data

Results flagged for a closer look

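The effect of *fbxl-5* loss differed between backgrounds by an interaction term in limma for the 3 genes given here. None of them is an F-box A gene, and the 3 are not a count over all genes named. The effect in *lin-29* minus that in wild-type was −1.53 ± 0.21 (SE) on the log2 scale for *ges-1* (adjusted p = 0.00035) and −1.43 ± 0.25 for *ifb-2* (adjusted p = 0.0026). The effect in *rict-1* minus that in wild-type was 0.76 ± 0.15 for *cul-5* (adjusted p = 0.0095).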

How the results depend on the processing

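No count of called F-box A members in *lin-29*, in its double mutant or in *rict-1* against wild-type moved by over 1.5 times under any alternative, and no named member changed direction under an alternative while called. The smaller counts did move. For *fbxl-5* against wild-type the 0 calls became 1 with a pseudocount of 0.5, 1 with DESeq2, 2 with the replicate block, 3 with only the libraries compared and 4 at an FDR of 0.05, and stayed at 0 to 0 with single libraries left out. For the *lin-29* double mutant against *lin-29* the 4 calls became 0 with only the libraries compared, 9 without the 3 libraries that stood apart and 14 at an FDR of 0.05, and ranged from 1 to 5 with single libraries left out. For the *rict-1* double mutant against *rict-1* the 1 call became 2 with a pseudocount of 5, 3 with DESeq2, 6 with only the libraries compared, 15 with these and the replicate block, 2 without the 3 libraries and 3 at an FDR of 0.05, and ranged from 0 to 1 with single libraries left out. Against wild-type that double mutant had 32 calls at an FDR of 0.05 and 10 to 18 with single libraries left out, against 21. The interaction with *lin-29* gave 2 calls with DESeq2, 1 with only the libraries compared, 2 without the 3 libraries and 7 at an FDR of 0.05, and 0 to 1 with single libraries left out, against 0. The interaction with *rict-1* gave 1, 6, 1 and 3 in the same settings and 0 to 0 with single libraries left out, against 0. The share of all genes called moved as well. For *fbxl-5* it was 2.85% with the block against 2.56%, and with only the libraries compared 1888 of 13472 genes were called, so that the 3 members called there are fewer than that share would give. With DESeq2 it was 6.24% for *fbxl-5* and 3.58% for the *rict-1* pair. With single libraries left out it was 3.93% to 9.81% for the *lin-29* pair and 0.646% to 0.787% for the *rict-1* pair. For the *rict-1* double mutant against wild-type it was then 5.87% to 7.24%. For the interactions with *lin-29* and *rict-1* it was 5.24% and 3.40% with DESeq2, 1.00% and 6.08% with only the libraries compared, and 4.16% and 2.95% without the 3 libraries, against 2.40% and 0.854%. No share over all genes is given at an FDR of 0.05, so the member counts at that threshold cannot be set against a background. The causes were not tested.

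The replicate block changed no other count by over 1.5 times. It gave 36 in *lin-29*, 33 in its double mutant, 37 in *rict-1* and 20 in its double mutant against wild-type. With the block, 44.3%, 41.9%, 19.6% and 13.5% of all genes were called in these comparisons. Between the *lin-29* pair it gave 5 (6.52% of all genes), and between the *rict-1* pair 1 (1.77%). Of the called members, 9 of 35 in *lin-29*, 11 of 33 in its double mutant, 3 of 35 in *rict-1* and 2 of 21 in its double mutant lost their call in at least 1 alternative. The median SD of a member within a genotype was 24.1% of its mean, so that changes of genes with few reads are the least certain.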

Other observations

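F-box A genes below the minimum of 10 were fitted without it, as a description. Of these 68 genes, 9 were called in *lin-29* against wild-type, all higher, and 5 in *rict-1*, all higher, with 0 in *fbxl-5*. Without the minimum 22.3% of all genes were called in *lin-29*, 7.66% in *rict-1* and 1.28% in *fbxl-5*, so these counts are below or near the share over all genes. *fbxa-165*, the fifth gene of the array with *fbxa-158*, was at 0 in all wild-type libraries and at 19.2, 15.6 and 18.9 normalized counts in *rict-1*, which is at least 16.7-fold higher when 3 reads are allowed to wild-type as a group, and it was at 8.29, 2.68 and 10.5 in *lin-29*, at least 6.2-fold higher. *fbxa-48* was at 1.17, 0 and 2.73 in wild-type, at 13.99, 16.3 and 18.9 in *rict-1* and at 18.99, 16.9 and 16.9 in its double mutant. *fbxa-151* was at 6.12, 5.45 and 6.89 in *rict-1* and at 0.826, 3.23 and 0.844 in its double mutant, near wild-type. *fbxa-75*, the other adaptor of the CUL-6 ligase, was at 0 in wild-type, *fbxl-5* and the *rict-1* double mutant, at 2.76, 1.79 and 7.52 in *lin-29* and at 0, 12.3 and 1.44 in its double mutant. In the *lin-29* double mutant against *lin-29*, 3 of the 68 genes were called, all lower, with 2.82% of all genes called. These were *fbxa-71*, *fbxa-135* and *fbxa-104*, and *fbxa-71* was at 0, 1.02 and 0 against 9.21, 11.6 and 12.04.

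The *pals* genes, many of which respond to intracellular pathogens together with *skr-5* and *cul-6*, were measured as a family. Of 20 that passed the minimum, 11 rose and 1 (*pals-1*) fell in *rict-1*, with a median log2 fold change of 1.18, and 12 rose in *lin-29*, with a median of 1.37. Over all genes 10.7% rose and 5.78% fell in *rict-1*, and 22.6% rose in *lin-29*. In the double mutants against wild-type 8 rose for *rict-1* and 10 rose and 1 fell for *lin-29*. Over all genes 7.36% rose in the former, and 19.5% rose and 19.5% fell in the latter. In *fbxl-5*, 0 of the 20 were called, and 4 had an unadjusted p below 0.05, as did 3243 of 13472 genes tested. *pals-6* changed by 5.38 ± 0.30 (SE) in *rict-1* (adjusted p = 3.4e-09) and by 3.90 ± 0.30 in *lin-29* (adjusted p = 2.8e-08) on the log2 scale. *pals-27* changed by 5.48 ± 0.38 in *lin-29* (adjusted p = 9.5e-09) and was at 0.72 ± 0.38 in *rict-1* (adjusted p = 0.17). *pals-22*, a repressor of this response, was not called in either mutant.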
